A study of Homo sapiens with 4 samples.

Results

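Integrins and laminins, the receptors and the ligands of cell adhesion to the basement membrane, were followed as a set of 35 genes (25 integrin subunits and 10 laminin chains) in parental and lapatinib-resistant HER2-positive breast cancer cells. The genes were listed by family membership and found on the arrays as the probes whose RefSeq accession maps to 1 of them, which gave 54 of the 41000 probes and 35 of the 16422 genes that could be named. Total RNA was hybridized to 4 Agilent Human Whole Genome arrays, 1 for each of 4 conditions, so no difference has a replicate check. SkBr3 and BT474 are established breast cancer cell lines that carry extra copies of ERBB2, the gene of HER2. The parental cells of each line were labeled as vehicle-treated, and each resistant culture was a single clone grown out under rising doses of lapatinib, which blocks the kinases EGFR and HER2, up to 1 μM. The sample labels and the paper number these clones differently, so they are called the SkBr3 clone and the BT474 clone here. A clone stands for 1 selected cell lineage and not for resistant cells in general. For its protein blots the paper kept these clones in 1 μM lapatinib. Its text on the arrays does not say whether the drug was present when the RNA was taken. Exposure to lapatinib and acquired resistance therefore cannot be told apart in any fold of a clone over its parental cells.

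An integrin is a pair of 1 α and 1 β subunit that spans the plasma membrane, binds matrix proteins or other cells on the outside, and is coupled to actin through talin and kindlin on the inside. A laminin is a trimer of 1 α, 1 β and 1 γ chain, and laminins are the main glycoproteins of the basement membrane on which mammary epithelium rests. Basal mammary epithelial cells attach to laminin through ITGA3 with ITGB1 and through ITGA6 with ITGB4, the integrin of hemidesmosomes. HER2 and integrins share downstream kinases, and integrin adhesion has been linked to how HER2-positive cells respond to HER2 inhibitors.

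Promoters of 4 members are shown for context: LAMB3 and ITGA6, which were higher in both clones, and LAMC1 and LAMA3, which had the largest measured fold in the SkBr3 and the BT474 clone. Each run is the 250 bases before an annotated transcription start in RefSeq (GRCh38.p14), written 5′ to 3′ along the gene. Capitals mark matches, on either strand, to the AP-1 motif TGANTCA, the GC box GGGCGG, the TATA box TATAAA or the κB consensus, the site of NF-κB. The windows are LAMB3 inner at chr1:209651375-209651624 (minus strand), LAMB3 outer at chr1:209652426-209652675 (minus strand), LAMA3 at chr18:23872770-23873019 (plus strand), LAMC1 at chr1:183023170-183023419 (plus strand) and ITGA6 at chr2:172427086-172427335 (plus strand).
LAMB3 inner: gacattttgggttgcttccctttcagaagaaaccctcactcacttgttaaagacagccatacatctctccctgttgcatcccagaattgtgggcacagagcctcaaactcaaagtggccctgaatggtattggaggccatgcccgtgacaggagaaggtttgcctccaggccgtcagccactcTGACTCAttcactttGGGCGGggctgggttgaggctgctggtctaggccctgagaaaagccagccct
LAMB3 outer: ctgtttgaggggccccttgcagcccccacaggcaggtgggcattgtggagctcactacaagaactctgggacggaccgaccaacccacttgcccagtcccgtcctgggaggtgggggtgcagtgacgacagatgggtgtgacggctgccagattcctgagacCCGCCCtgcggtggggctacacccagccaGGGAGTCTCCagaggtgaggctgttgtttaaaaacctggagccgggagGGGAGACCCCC
LAMA3: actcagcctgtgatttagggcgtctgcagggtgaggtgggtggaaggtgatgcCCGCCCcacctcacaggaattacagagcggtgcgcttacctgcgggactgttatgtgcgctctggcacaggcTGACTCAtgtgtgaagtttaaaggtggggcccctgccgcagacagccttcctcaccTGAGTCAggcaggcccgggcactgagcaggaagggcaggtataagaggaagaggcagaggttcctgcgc
LAMC1: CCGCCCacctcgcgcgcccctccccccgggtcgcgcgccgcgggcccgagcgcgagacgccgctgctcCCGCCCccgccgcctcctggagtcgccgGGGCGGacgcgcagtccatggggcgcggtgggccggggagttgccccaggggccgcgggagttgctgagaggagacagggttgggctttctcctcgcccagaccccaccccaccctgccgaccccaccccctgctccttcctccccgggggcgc
ITGA6: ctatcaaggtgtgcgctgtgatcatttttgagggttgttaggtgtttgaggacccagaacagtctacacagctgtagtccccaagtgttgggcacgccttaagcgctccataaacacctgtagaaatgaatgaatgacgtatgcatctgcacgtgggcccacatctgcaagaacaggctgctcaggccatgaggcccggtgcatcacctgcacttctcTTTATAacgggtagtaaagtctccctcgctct

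The inner LAMB3 window held 1 AP-1 match 67 to 61 bases before the start, followed by a GC box at 52 to 47. The LAMA3 window held 2 AP-1 matches, at 125 to 119 and at 69 to 63. LAMA3 and LAMB3 were the members with an AP-1 match, 2 of the 25 members for which RefSeq gave a window, and 6.57% of all 35116 windows held one. A member counts here if any of its windows held a match, and some have several windows. The counts of members are thus not in the same unit as the shares of windows, for this and the other motifs. The outer LAMB3 window held 3 κB matches, of which those at 11 to 2 and 10 to 1 overlap, and a κB match was present in 7 of 25 members and 9.96% of all windows. LAMC1 had 3 GC boxes and none of the other motifs in a window of 79.6% G and C, and a GC box was present in 14 of 25 members and 42.6% of all windows. The outer ITGA6 window held a TATA box, on the opposite strand, at 32 to 27, and the TATA box was present in 2 members and 10.7% of windows. These matches describe letters and not bound sites, and no binding was measured. LAMB3 has 3 annotated windows and ITGA6 has 2. ITGA3, ITGA7, ITGA9, ITGAL, ITGAX, ITGB2, ITGB3, ITGB4, LAMA1 and LAMC3 had no entry.

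The signals given here are the processed intensities of the scanner software, on a linear scale and before scaling. Over all probes the 75th percentile of the signal ranged from 1115 to 2074, highest in the SkBr3 clone. Each fold is taken after dividing a signal by that percentile of its own array. The percentile was higher in each clone than in its parental cells, so a rise is smaller, and a fall larger, than the plain ratio of signals. Some falls called below were under 2-fold before scaling, among them LAMB2, PLEC and FN1 in the SkBr3 clone and TNC, PARVB and VWF in the BT474 clone. The software marked 66.6% to 74.0% of the probes as well above background, and no spot was saturated. Of the 35 members, 26 were well above background in parental SkBr3, 30 in the SkBr3 clone, 24 in parental BT474 and 25 in the BT474 clone. A member counted as called at a fold of at least 2, and where 1 of the 2 signals was not well above background the fold is a lower limit. Levels of different genes are not comparable on these arrays. The array of the SkBr3 clone lay on a slide of its own, so slide and resistance cannot be told apart in SkBr3, whereas both BT474 arrays shared 1 slide.

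The luminal epithelial markers KRT8, KRT18, KRT19, EPCAM and GATA3 were well above background on all 4 arrays, and none was called in a clone. Closest to the threshold were GATA3 in the SkBr3 clone (1.95-fold higher) and EPCAM in the BT474 clone (1.90-fold lower). The ERBB2 signal was 238524 in parental SkBr3, 118706 in the SkBr3 clone, 256346 in parental BT474 and 237327 in the BT474 clone, so its scaled level was 3.74-fold lower in the SkBr3 clone and 1.57-fold lower, below the threshold, in the BT474 clone. The 4 basal epithelial markers KRT5, KRT14, KRT17 and TP63 were all called higher in the SkBr3 clone, with a summed signal of 112 in the parental cells and 5489 in the clone. In BT474 the sum was 1244 in the parental cells and 2489 in the clone, where KRT14 and KRT17 were called higher and KRT5 was not well above background. Most of both BT474 sums came from TP63, with signals of 1125 and 1966, which was not called in that clone. These sums add signals before scaling, so 1 bright gene can set them. The part of these basal and luminal differences in the changes of LAMB3, LAMA3 and ITGA6 was not tested. In RNA from a whole culture, a higher level in every cell and a larger share of cells with that level cannot be told apart.

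**Figure D1:**
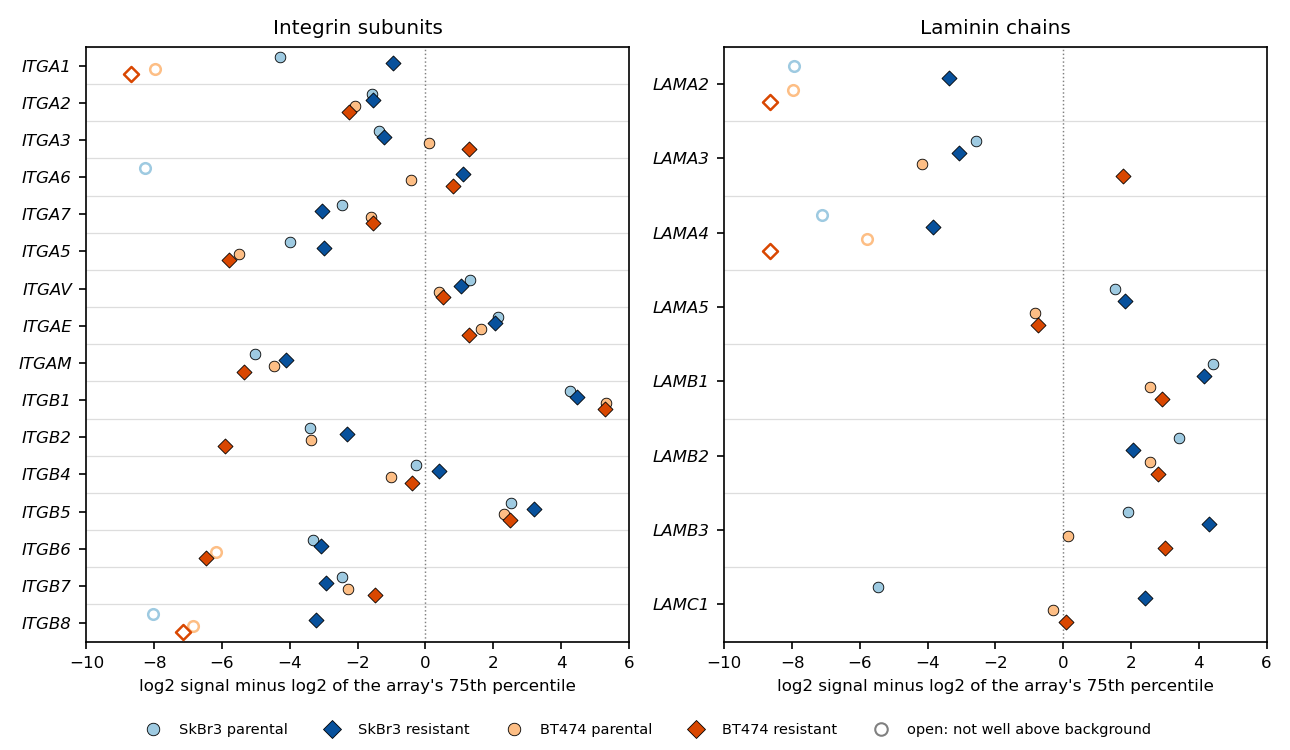
Each point is the log2 processed signal of 1 array minus the log2 of that array's 75th percentile, for the 24 members with a signal of at least 100 on at least 1 array, with integrin subunits on the left and laminin chains on the right. Open symbols are not well above background, and LAMB3 lies higher in both clones (diamonds) than in their parental cells (circles), by 2.38 and 2.88 on the log2 scale.

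LAMB3 was higher in both clones. It encodes the β chain of the laminin that anchors epithelial cells to the basement membrane under hemidesmosomes. The LAMB3 signal was 4204 in parental SkBr3, 40789 in the SkBr3 clone, 1271 in parental BT474 and 13565 in the BT474 clone. After scaling, it was 5.22-fold higher in the SkBr3 clone (log2 fold change 2.38) and 7.35-fold higher in the BT474 clone (2.88), and both clones lay above both parental lines. LAMB3 and ITGA6 were the 2 members called higher in both clones, which was true of 2.46% of the 12136 genes with a signal of at least 100 on at least 1 array.

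ITGA6, the α subunit that pairs with ITGB4 in hemidesmosomes and with ITGB1 elsewhere, was the other. Its signal was 3.58 in parental SkBr3, 4479 in the SkBr3 clone, 869.8 in parental BT474 and 2986 in the BT474 clone, and in parental SkBr3 it was not well above background. The scaled level was at least 150.4-fold higher in the SkBr3 clone and 2.37-fold higher in the BT474 clone. Parental SkBr3 thus stood apart from the other 3 arrays, at least 52.3-fold below parental BT474.

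Of the 24 members with a signal of at least 100 on at least 1 array, 9 were called higher in the SkBr3 clone (ITGA1, ITGA5, ITGA6, ITGB2, ITGB8, LAMA2, LAMA4, LAMB3 and LAMC1) and 1 was called lower (LAMB2), where 13.4% and 12.9% of all 12136 genes were called in the same directions. The median log2 fold change of the members was 0.49, beside -0.05 over all genes. In the SkBr3 clone 5 of the 16 integrin subunits were higher and none lower, and 4 of the 8 laminin chains were higher and 1 lower. 6 members (ITGA1, ITGA5, ITGAM, ITGB8, LAMA2 and LAMA4) reached a signal of 100 on the array of the SkBr3 clone alone, so they entered the count through the array on which they were bright and neither the count nor the median is evidence about the family.

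LAMC1 encodes the γ chain shared by most laminins and had the largest measured fold in the SkBr3 clone. The LAMC1 signal was 25.3 in parental SkBr3, 11119.7 in the SkBr3 clone, 935 in parental BT474 and 1760.4 in the BT474 clone. Its scaled level was 236-fold higher in the SkBr3 clone (log2 fold change 7.88), and 1.3-fold higher, below the threshold, in the BT474 clone. As with ITGA6, the parental SkBr3 array was the low one, 35.6-fold below parental BT474, and its signal was near the lowest signal so marked in parental SkBr3 (16.01).

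LAMA2 and LAMA4, both laminin α chains, were well above background in the SkBr3 clone alone. LAMA2, the chain of the laminin of muscle, had a signal of 4.57 in parental SkBr3, 201 in the SkBr3 clone, 4.57 in parental BT474 and 4.18 in the BT474 clone, at least 6.75-fold higher in the SkBr3 clone than in its parental cells. LAMA4, a chain of vessel laminins, had a signal of 7.99 in parental SkBr3, 143 in the SkBr3 clone, 21 in parental BT474 and 4.15 in the BT474 clone, at least 4.81-fold higher. For both genes the other 3 arrays were not well above background, so no fold was given for the BT474 clone.

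ITGA1, the α subunit of a receptor for collagen and laminin, had a signal of 56.6 in parental SkBr3, 1077 in the SkBr3 clone, 4.62 in parental BT474 and 4.11 in the BT474 clone. It was 10.2-fold higher in the SkBr3 clone, and neither BT474 array was well above background. ITGB8, which pairs with ITGAV to bind latent TGF-β, had a signal of 4.25 in parental SkBr3, 221 in the SkBr3 clone, 9.91 in parental BT474 and 11.8 in the BT474 clone and was at least 7.41-fold higher in the SkBr3 clone, the 1 array above background. Of the other 3 probes of ITGB8, 2 were not well above background on any array, while the third gave 23.1 in the SkBr3 clone, 33.3 in parental BT474, and signals not above background on the remaining arrays, so the probes of this gene disagree, and with their mean in place of the brightest probe ITGB8 was not called.

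Beside LAMA2, LAMA4 and ITGA1, markers of fibroblasts and endothelium were measured in the same RNA. Of the 4 fibroblast markers with a probe, COL3A1 (347) and PDGFRB (64.8) were well above background in the SkBr3 clone, none was on the other arrays, and COL1A2 and DCN were not well above background on any array. The summed fibroblast signal was 428 in the SkBr3 clone and 16.9 to 19.0 on the other arrays. The endothelial markers PECAM1 and CDH5 were called higher in the SkBr3 clone, while in the BT474 clone PECAM1 was at least 2.38-fold higher and VWF was 2.18-fold lower. The endothelial sum over PECAM1, VWF and CDH5, before scaling, was 181, 1395, 905 and 658 in parental SkBr3, the SkBr3 clone, parental BT474 and the BT474 clone. VWF alone gave 892 of the sum in parental BT474 and 594 in the BT474 clone. Their part in these changes was not tested.

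2 further integrins passed the threshold narrowly in the SkBr3 clone. ITGA5, the α subunit of the classical fibronectin receptor, had a signal of 69.3 in parental SkBr3, 261 in the SkBr3 clone, 25.6 in parental BT474 and 30 in the BT474 clone, a 2.03-fold rise in the SkBr3 clone and a log2 fold change of -0.31 in the BT474 clone. The rise of ITGA5 was not called when the percentile was taken over probes above background, after normexp with quantile normalization, after 16 was added to each signal, or at a 3-fold threshold. ITGB2, the β subunit of the leukocyte integrins, was spotted 10 times, with mean signals of 106 in parental SkBr3, 419.9 in the SkBr3 clone, 112 in parental BT474 and 28.1 in the BT474 clone. It was 2.14-fold higher in the SkBr3 clone and 5.81-fold lower in the BT474 clone, the 1 member called in opposite directions, where 2.56% of all genes were so called. The spots ranged from 93.6 to 151 in parental SkBr3, 397 to 455 in the SkBr3 clone, 100.4 to 126 in parental BT474 and 20.1 to 66.0 in the BT474 clone. These spots are repeats of 1 probe on 1 array of 1 RNA sample, before scaling, so their range is technical and does not cover the spread between samples. Its rise in the SkBr3 clone was not called after normexp with quantile normalization, with 16 added, or at 3-fold, while its fall in the BT474 clone was called under all 12 alternatives, with a log2 fold change of -1.26 after normexp with quantile normalization.

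The α partners of ITGB2 were dim. ITGAM had signals of 34 in parental SkBr3, 119 in the SkBr3 clone, 52.5 in parental BT474 and 40.9 in the BT474 clone, with log2 fold changes of 0.91 and -0.90 that missed the threshold in both clones. ITGAL stayed below a signal of 22 and ITGAX was not well above background on any array. Among leukocyte markers, PTPRC was not well above background on any array, CD3E had signals of 35.1 in parental SkBr3, 134 in the SkBr3 clone, 32 in parental BT474 and 53.3 in the BT474 clone and CD14 had signals of 48.2 in parental SkBr3, 143 in the SkBr3 clone, 109 in parental BT474 and 115 in the BT474 clone. CD3E was 2.05-fold higher in the SkBr3 clone, CD14 was called in neither clone, and their part in the ITGB2 changes was not tested.

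LAMB2, a β chain found in vascular, kidney and synaptic laminins, was the 1 member called lower in the SkBr3 clone. The LAMB2 signal was 11800.5 in parental SkBr3, 8692 in the SkBr3 clone, 6838 in parental BT474 and 11646 in the BT474 clone. After scaling it was 2.53-fold lower in the SkBr3 clone, although its signals before scaling differed by less than 2-fold. Its log2 fold change in the BT474 clone was 0.23. LAMB1, the β chain of most other laminins, was well above background on all 4 arrays, with log2 fold changes of -0.26 and 0.36, so in the SkBr3 clone the 3 β chains with a probe here moved in different ways (LAMB3 higher, LAMB2 lower, LAMB1 not called).

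In the BT474 clone 4 of the 24 members were called higher (ITGA3, ITGA6, LAMA3 and LAMB3) and 1 lower (ITGB2), where 8.56% and 5.16% of all genes were called in these directions. The median was 0.18, beside -0.08 over all genes, and 5 members (ITGA1, ITGB6, ITGB8, LAMA2 and LAMA4) had no fold. ITGA3 and ITGA6 are the α subunits of the laminin receptors of basal epithelium, and LAMA3 and LAMB3 encode chains of the same laminin. Both arrays of this comparison shared a slide. The split was 3 higher and 2 lower with medians in place of the 75th percentile, where ITGA3 (log2 fold change 0.97) was not called and ITGAM was called lower, and 4 higher and 2 lower after quantile normalization.

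LAMA3 had the largest measured fold in the BT474 clone. The LAMA3 signal was 188 in parental SkBr3, 248 in the SkBr3 clone, 64.9 in parental BT474 and 5671 in the BT474 clone. The scaled level was 60.2-fold higher in the BT474 clone (log2 fold change 5.91, or 3.97 as the mean over its 3 probes) and missed the threshold in the SkBr3 clone (-0.49), so a single array stood far above the other 3. The 2 further LAMA3 probes were well above background in the BT474 clone alone, with signals of 76.0 and 110.1, at least 3.28-fold and at least 4.75-fold above parental BT474. LAMA3 and LAMB3 were thus higher together in the BT474 clone, whereas in the SkBr3 clone LAMB3 was higher and LAMA3 was not called.

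ITGA3 had a signal of 429 in parental SkBr3, 898 in the SkBr3 clone, 1253 in parental BT474 and 4109.6 in the BT474 clone. It was 2.26-fold higher in the BT474 clone, with a log2 fold change of 0.17 in the SkBr3 clone. Both BT474 arrays were above both SkBr3 arrays for this probe, and parental SkBr3 was 2.81-fold below parental BT474.

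**Figure D2:**
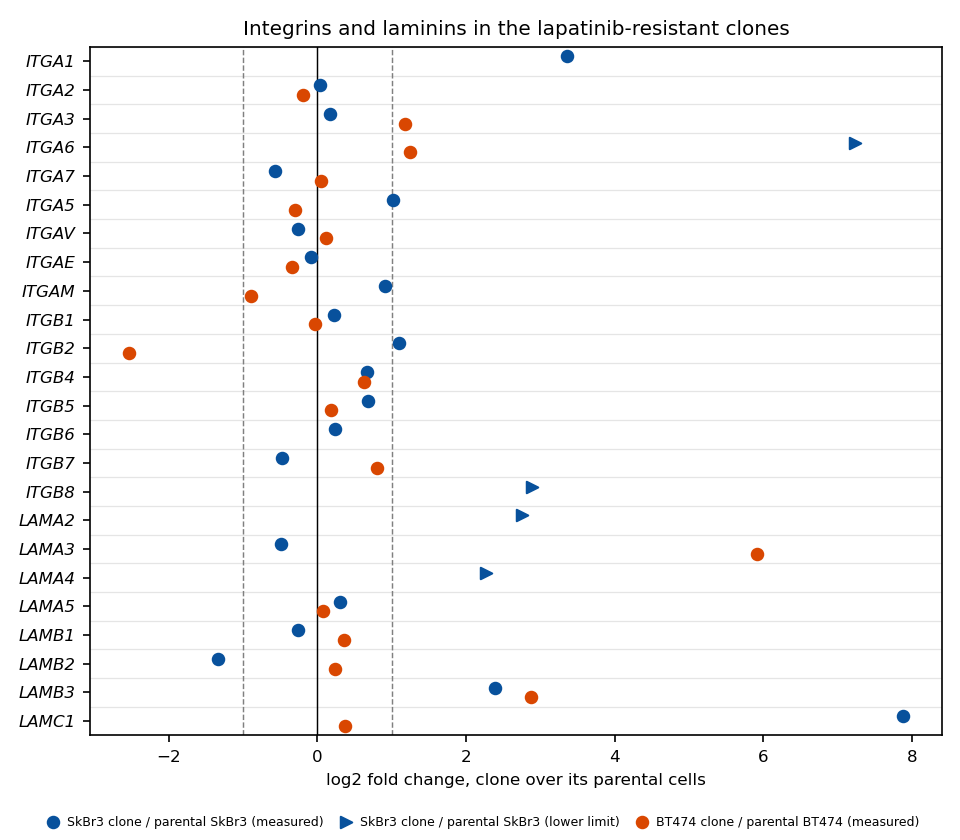
Log2 fold change of each clone over its own parental cells for the same 24 members, with circles for measured folds, triangles for lower limits, and dashed lines at the 2-fold threshold. Blue marks of the SkBr3 clone reach 7.88 (LAMC1) and at least 7.23 (ITGA6), while the orange marks of the BT474 clone run from -2.54 (ITGB2) to 5.91 (LAMA3).

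Another 12 of the 24 members were called in neither clone. ITGB1, the β subunit of most matrix receptors, was well above background on every array, with signals of 21253 in parental SkBr3, 46251 in the SkBr3 clone, 46686 in parental BT474 and 66268 in the BT474 clone and log2 fold changes of 0.23 in the SkBr3 clone and -0.03 in the BT474 clone. Its other 2 probes gave 0.40 and 0.40 in the SkBr3 clone and 0.09 and -0.10 in the BT474 clone, all under the threshold. ITGB4, the hemidesmosomal β subunit, had signals of 925 in parental SkBr3, 2734 in the SkBr3 clone, 569 in parental BT474 and 1269 in the BT474 clone, with log2 fold changes of 0.67 and 0.62. The ITGB4 differences were alike in the clones and stayed under 2-fold, whereas its partner ITGA6 was called in both.

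The remaining members that missed the threshold were ITGA2, ITGA7, ITGAE, ITGAM, ITGAV, ITGB5, ITGB6, ITGB7, LAMA5 and LAMB1. Among the receptors of vitronectin and latent TGF-β, ITGB5 gave log2 fold changes of 0.68 and 0.18 in the SkBr3 and BT474 clones. ITGAV, their shared α subunit, was spotted 10 times and gave -0.26 and 0.12, with spots from 2639 to 2883 in parental SkBr3 and from 3932 to 4684 in the SkBr3 clone before scaling. ITGB6, which also pairs with ITGAV, had signals of 112 in parental SkBr3, 245 in the SkBr3 clone, 15.9 in parental BT474 and 18.8 in the BT474 clone, so it was well above background in both SkBr3 arrays and at or near background in BT474. ITGAE, which binds E-cadherin with ITGB7, gave -0.09 and -0.35, and ITGB7 gave -0.47 and 0.80. For the collagen receptor ITGA2 the values were 0.04 and -0.19, and for ITGA7, a laminin receptor of muscle, -0.58 and 0.04. LAMA5, the α chain of most adult epithelial laminins, gave 0.31 and 0.07.

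A signal of 100 was not reached on any array by 11 members. ITGA4, ITGA8, ITGA10, ITGAX and ITGB3 were not well above background on any array, among them ITGA4, an α subunit of lymphocyte integrins, and ITGB3, the platelet β subunit. ITGA2B, ITGA9, ITGA11, ITGAL, LAMA1 and LAMC3 were dim and above background on at least 2 arrays, with signals of at most 67. For LAMA1, the α chain of early embryonic laminin, another probe was well above background in the SkBr3 clone alone at 64.0, at least 2.15-fold above parental SkBr3, while the brighter LAMA1 probe gave a log2 fold change of -0.47. A further ITGA9 probe was well above background in parental SkBr3 alone, at 20.3, and at least 2.84-fold lower in the SkBr3 clone.

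Some of these genes also differed between the parental lines. In parental SkBr3 against parental BT474, 7 of the 24 members were called higher (ITGA1, ITGA5, ITGB6, LAMA3, LAMA5, LAMB1 and LAMB3) and 4 lower (ITGA3, ITGA6, ITGB1 and LAMC1), where 18.6% and 19.0% of all genes were so called. The median log2 difference was 0.50, beside 0.02 over all genes. Neither these counts nor the median are evidence about the family. LAMA5, with signals of 3206 in parental SkBr3, 7389.6 in the SkBr3 clone, 652 in parental BT474 and 995 in the BT474 clone, was 5.11-fold higher in parental SkBr3, and LAMB1, with signals of 23588 in parental SkBr3, 36752 in the SkBr3 clone, 6825 in parental BT474 and 12683 in the BT474 clone, was 3.59-fold higher. Both clones kept the side of their parental line for LAMA5 and LAMB1. For ITGA6 and LAMC1 the large deficit of parental SkBr3 was absent in the SkBr3 clone, whose signals of 4479 and 11119.7 were above those of both BT474 arrays.

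Read as a pair, the hemidesmosomal subunits ITGA6 and ITGB4 were both well above background on every array except parental SkBr3, where ITGA6 was not. These are RNA signals and do not show assembled protein.

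As the 4 arrays hold no replicates, limma was run across both cell lines, with cell line as a block and 1 residual degree of freedom, on the signals as measured. LAMB3 was the 1 member of 24 with an unadjusted p below 0.05 (limma, log2 fold change 2.63 ± 0.44 (SE), Benjamini-Hochberg adjusted p = 1.00), higher in 2 of 2 clones. In all, 900 of 25927 probes (3.47%) had an unadjusted p below 0.05, and none had an adjusted p below 0.05. For ITGA6 the same limma fit gave 5.32 ± 2.22 (SE) and for LAMC1 4.13 ± 2.05 (SE), with an adjusted p of 1.00 for each. No integrin or laminin change passed the adjusted test.

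Other genes of the adhesion pathway were read from a list of 71 genes, all matched to a probe and 61 with a signal of at least 100 on at least 1 array. In the SkBr3 clone 19 were called higher and 6 lower, beside 13.4% and 12.9% of all genes, with a median log2 fold change of 0.40 against -0.05. In the BT474 clone 8 were called higher and 2 lower (7 and 4 with median scaling), beside 8.56% and 5.16% of all genes, with a median of 0.07 against -0.08. Some listed genes entered these counts through the arrays on which they were bright. ICAM1 reached a signal of 100 in the SkBr3 clone alone, and COL17A1 in the clones alone. The counts and medians of this list and of its parts are therefore not evidence about the pathway. Of the 34 cytoplasmic adhesion proteins, which tie integrin tails to actin, 13 were higher and 1 lower in the SkBr3 clone (all genes, 13.4% and 12.9%), and 4 higher and 1 lower in the BT474 clone (8.56% and 5.16%). FERMT1, a kindlin that activates integrins at their β tails, had signals of 50.6 in parental SkBr3, 1429 in the SkBr3 clone, 266 in parental BT474 and 3147 in the BT474 clone, 15.2-fold and 8.15-fold higher in the clones. TNS4, a tensin that lacks the actin-binding part of its relatives, had signals of 4308 in parental SkBr3, 59079 in the SkBr3 clone, 37.4 in parental BT474 and 485 in the BT474 clone, 7.37-fold and 8.94-fold higher. Both clones lay above their own parental cells for FERMT1 and TNS4, as they did for LAMB3.

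NEDD9, a scaffold of focal adhesion kinase signaling, was 6.38-fold higher in the SkBr3 clone and 3.38-fold higher in the BT474 clone. TLN2, a talin, was 9.23-fold higher in the SkBr3 clone, with a log2 fold change of -0.35 in the BT474 clone. The other talin, TLN1, was called in neither, with log2 fold changes of 0.20 and -0.06. TNS2, another tensin, was 3.87-fold lower in the SkBr3 clone. PARVB, a parvin of the complex with integrin-linked kinase, was 2.82-fold lower in the BT474 clone and at least 2.02-fold higher in the SkBr3 clone, where the parental cells gave only a dim signal.

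Hemidesmosomes join the integrin of ITGA6 and ITGB4 to keratin. COL17A1, their transmembrane collagen, had signals of 28.5 in parental SkBr3, 233 in the SkBr3 clone, 58.1 in parental BT474 and 1075 in the BT474 clone and was 4.4-fold and 12.7-fold higher in the clones. PLEC, the plakin that links ITGB4 to keratin, was 2.6-fold lower in the SkBr3 clone, with a log2 fold change of 0.56 in the BT474 clone, and DST was called in neither. Among 6 tetraspanins, which organize laminin-binding integrins in the membrane, CD9 was 9.53-fold lower in the SkBr3 clone (signals of 17813 and 3478), and none was called in the BT474 clone.

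Of the 5 other laminin receptors, the syndecan SDC1 was 6.81-fold lower in the SkBr3 clone and SDC2 was 10.7-fold higher in the BT474 clone. SDC2 had signals of 3.35 in parental SkBr3, 15.3 in the SkBr3 clone, 1973 in parental BT474 and 30689 in the BT474 clone, so it was bright in the BT474 line and near background in SkBr3. Among 13 other integrin ligands, 5 were higher and 2 lower in the SkBr3 clone, and 2 were higher and 1 lower in the BT474 clone, beside the same shares of all genes (13.4% and 12.9%, and 8.56% and 5.16%). ICAM1, the ligand of leukocyte integrins, had signals of 46.8 in parental SkBr3, 2781 in the SkBr3 clone, 9.69 in parental BT474 and 13.3 in the BT474 clone, 31.9-fold higher in the SkBr3 clone and not well above background in BT474. VTN, a ligand of ITGAV integrins, was 9.36-fold higher in the SkBr3 clone, and THBS1 was 4.04-fold and 2.37-fold higher in the clones.

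FN1, the fibronectin bound by ITGA5, was 3.63-fold lower in the SkBr3 clone, in which ITGA5 was narrowly higher. NPNT, a basement membrane ligand of ITGA8, had signals of 1163 in parental SkBr3, 257 in the SkBr3 clone, 202 in parental BT474 and 1214 in the BT474 clone. It was 8.41-fold lower in the SkBr3 clone and 4.14-fold higher in the BT474 clone, while ITGA8 was not well above background on any array. TNC, a matrix glycoprotein, was 2.04-fold lower in the BT474 clone and not well above background in SkBr3.

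**Figure D3:**
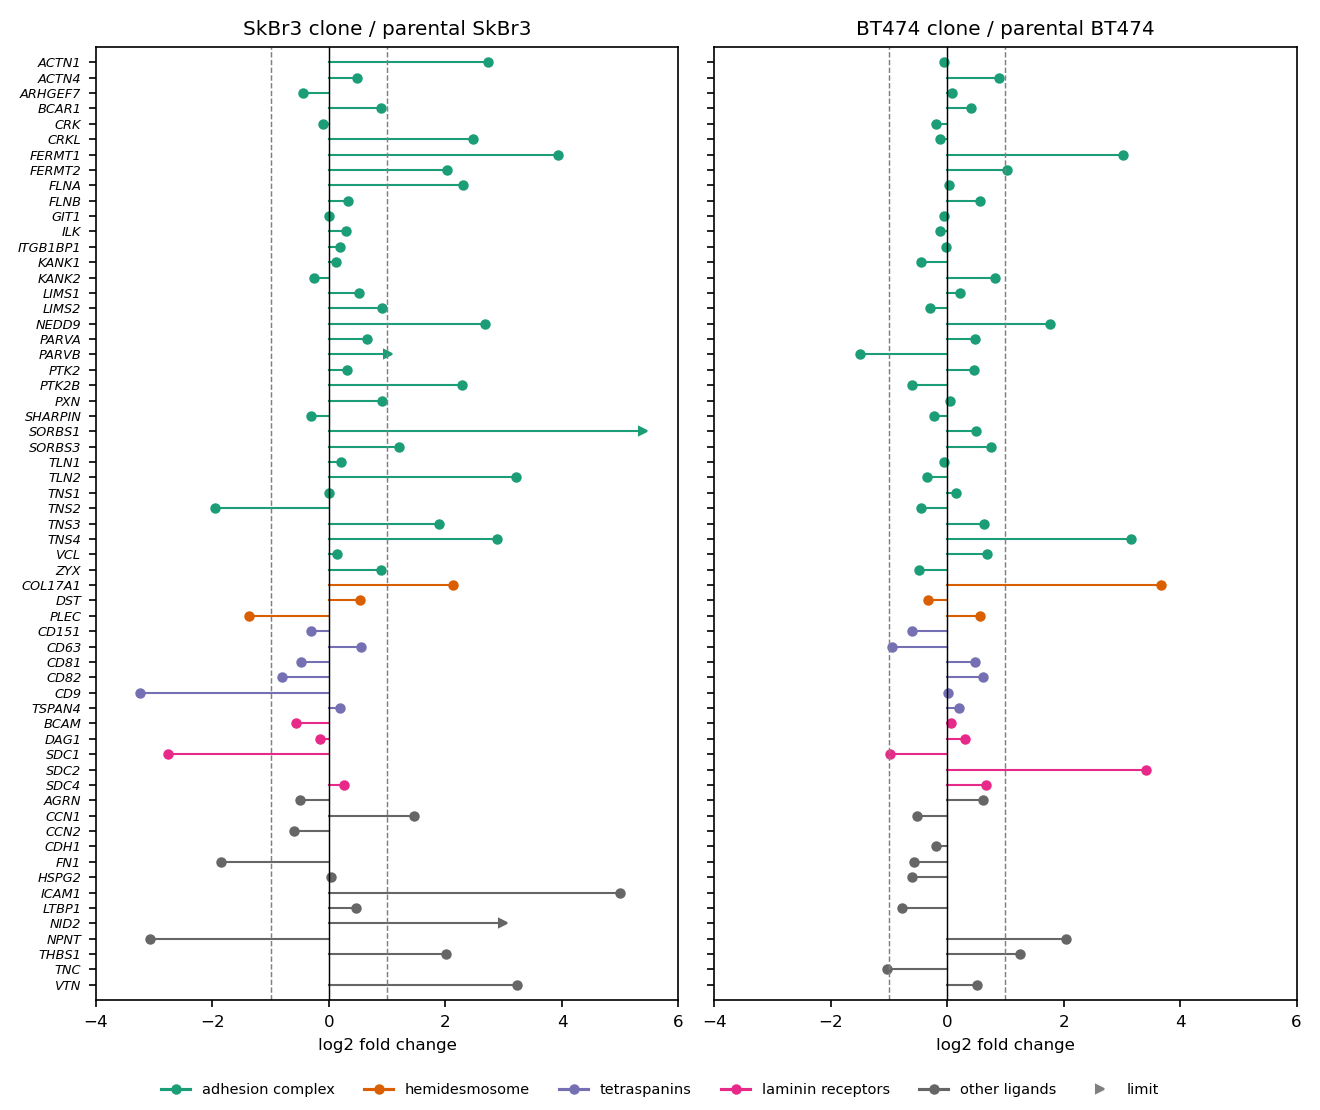
Log2 fold change of each clone over its parental cells for the listed adhesion and ligand genes with a signal of at least 100 on at least 1 array, the SkBr3 clone on the left and the BT474 clone on the right, colored by list. Dashed lines mark 2-fold and triangles are limits, and FERMT1 (3.92 and 3.03), TNS4 (2.88 and 3.16) and COL17A1 (2.14 and 3.67) extend to the right in both panels, while NPNT points left in SkBr3 (-3.07) and right in BT474 (2.05).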

How the data were processed

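RNA of 4 samples was hybridized to 1 array each. The authors deposited, spot by spot, a background-subtracted intensity (the processed signal), with median pixel intensities and flags for spots well above background, saturated or outlying. Per the file headers these come from Feature Extraction 10.1.1.1 and 1 Cy3 channel, whereas the methods name another version, Cy3 or Cy5 and LOWESS. The authors also deposited log2 values per probe, centered per probe (column medians 0.125, -0.198, 0.106 and -0.0457). Their centering reference is unknown, and their column differences deviated from those computed here by a median of at most 0.0014 on the log2 scale. Single probes deviated by up to 0.616, and ITGB2 in the BT474 clone gave -2.68 in place of -2.54.

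The log2 signals of a probe's spots were averaged, and the log2 of each array's 75th percentile over 41000 probes was subtracted. A gene was represented by its probe with the highest mean value, named through RefSeq accessions (23680 probes, GRCh38.p14), and kept at a signal of at least 100 on at least 1 array. A probe was well above background when 50% or more of its spots carried that flag. A dim signal was raised to the lowest signal well above background on its array, which makes the fold a limit, and no fold is given where both signals were dim or the limit was under 1. Called means at least 2-fold. The number of arrays limits the precision. limma 3.58.1 in R 4.3.3 was run on the 25927 kept probes, with Benjamini-Hochberg adjustment, and the rest used Python 3.11.15, numpy 2.4.6, pandas 2.3.3 and matplotlib 3.10.9.

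Members and lists were chosen with earlier results of these data known. All called members are named with their values, and from each other list the called genes with the largest rise and fall in each clone, at most 3 each way and well above background on both arrays, plus PARVB in the SkBr3 clone. CCN1 and CCN2 of the ligand list were matched through older symbols. COL1A1 is not analysed here, and 1 leukocyte marker is not reported here.

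Alternatives were the percentile over probes above background, median scaling, quantile normalization, normexp (offset 50, on median pixel intensities) with quantile normalization, the deposited log2 table, 16 added before log2, no filter, a filter on all 4 arrays, outlier spots left out, measured signals without limits, a 3-fold threshold, the mean over a gene's probes, and limma without a block or after quantile normalization. The scripts were tested on simulated data.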

Additional observations from a re-analysis of the deposited data

Results flagged for a closer look

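Among the 24 members and the 61 listed genes, 3 were called in opposite directions in the SkBr3 and the BT474 clone. Of all 12136 genes, 2.56% were so called. The difference was not tested because each line has 1 clone. ITGB2 had a log2 fold change of 1.09 in the SkBr3 clone and -2.54 in the BT474 clone, a difference of 3.63. PARVB had a lower limit of 1.02 in the SkBr3 clone and -1.50 in the BT474 clone, a difference of at least 2.51. NPNT had -3.07 and 2.05, a difference of -5.12.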

How the results depend on the processing

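The calls of LAMB3 in both clones, LAMC1 in the SkBr3 clone, and LAMA3 and ITGB2 in the BT474 clone held under all 12 alternatives to the 2-fold comparison, and none of 158 values of the called members changed sign, although 66 moved by more than the spread between spots. In the SkBr3 clone the 9 members called higher became 4 with the filter on all 4 arrays, which by construction removes ITGA1, ITGA6, ITGB8, LAMA2 and LAMA4, and the 1 called lower became 0 at 3-fold. In the BT474 clone the 4 called higher became 2 at 3-fold, and the 1 called lower became 2 with measured signals, with quantile normalization and with median scaling, which gave 3 higher and 2 lower. The cause of these changes under other scalings was not tested. Normexp with quantile normalization lowered LAMC1 (7.88) to 6.14, ITGA6 (at least 7.23) to 5.47, ITGA1 (3.35) to 2.54, ITGB8 (at least 2.89) to 1.69, LAMA2 (at least 2.75) to 1.5 and LAMA4 (at least 2.27) to 1.24 in the SkBr3 clone, all still called. The members' median in the SkBr3 clone (0.49) was 0.04 with the filter on all 4 arrays, 0.67 with the mean over probes, 0.65 with median scaling and 0.21 with no filter. In the BT474 clone (0.18) it was 0.29 with the percentile over probes above background, 0.07 with the filter on all 4 arrays, -0.02 with median scaling, 0.33 with normexp and quantile normalization, and 0.32 with quantile normalization alone. Median scaling moved the median of all kept probes from -0.10 to 0.05 in SkBr3 and from -0.05 to -0.26 in BT474. Of the adhesion and ligand list in the BT474 clone, the 2 called lower became 0 at 3-fold, 1 with the percentile over probes above background, 0 with the filter on all 4 arrays and 4 with median scaling (7 higher). limma without the block gave 308 probes with an unadjusted p below 0.05 in place of 900, and 0 with an adjusted p below 0.05 in either fit. No paired analysis was possible within a cell line, because each condition has 1 array, and leaving out an array leaves no residual degree of freedom in the limma fit that blocks on cell line. A signal not marked as well above background gives a limit and not a fold, and the lowest signal so marked was 13.3 to 16.01.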
